A study of Mus musculus with 6 samples.

Results

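Paraspeckles are nuclear bodies built on a long noncoding RNA, and 8 genes of this system were examined, chosen by name from the 46078 genes listed in the counts. They comprised the architectural RNA *Neat1*, its chromosomal neighbour *Malat1*, the DBHS family genes *Sfpq*, *Nono* and *Pspc1*, and the genes of the RNA-binding proteins *Rbm14*, *Tardbp* and *Matr3*. All 8 passed the filter on low counts. RNA came from C2C12 cells, an immortalized mouse myoblast line that fuses into myotubes. In these cells *Hnrnpa2b1* had been knocked out by CRISPR-Cas9 (KO) or was wild type (WT). For a Western blot, the paper describes its control myoblasts as treated with a scrambled guide RNA. Both genotypes were differentiated for 2 days by withdrawing serum and adding insulin, transferrin and selenium, and 3 libraries of each were sequenced after depletion of ribosomal RNA (KO1 to KO3 and WT1 to WT3). According to the methods, clones of each genotype were isolated independently with a cloning ring, but the clone behind each library is not given in the sources used here, so p-values measure the spread between these libraries. The comparison of KO with WT asks which transcripts differ in level when *Hnrnpa2b1* is lost in differentiating myoblasts.

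In the nucleus the long form of *Neat1* acts as the scaffold of the paraspeckle, and SFPQ, NONO and PSPC1 coat it as dimers. A shorter form starts at the same position and ends at an upstream polyadenylation site, and TDP-43, encoded by *Tardbp*, is known to favour it by binding GU-rich RNA. *Malat1*, one of the most abundant nuclear RNAs, is found at nuclear speckles, which lie next to paraspeckles and store splicing factors. Hnrnpa2b1 is an hnRNP that binds RNA at UAGGG-like sites and takes part in splicing.

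*Neat1* (ENSMUSG00000092274) lies at chr19:5824708-5845478 on the minus strand of GRCm38, and *Malat1* (ENSMUSG00000092341) at chr19:5795690-5802672 on the same strand, with 22035 bases between them. The longest annotated *Neat1* transcript is unspliced and spans all 20771 bases of the gene, whereas a shorter one of 3004 bases starts within a few bases of it. The shorter transcript lies inside the longer one, so a count per gene cannot tell them apart. Among the DBHS genes, *Sfpq* lies at chr4:127021324-127037013 (plus strand), *Nono* at chrX:101429318-101448591 (plus strand) and *Pspc1* at chr14:56722441-56778316 (minus strand). *Rbm14* lies at chr19:4800569-4811634 (minus strand) and *Tardbp* at chr4:148612382-148627019 (minus strand).

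The stretch of *Neat1* with the most matches to GTGTGT, a DNA spelling of the GU repeat that TDP-43 binds, is shown because it joins one member's RNA to another member's protein. It lies at chr19:5826028-5826057 on the minus strand of GRCm38, in the long transcript downstream of the end of the 3004-base one, with the 10 overlapping matches in capitals.
Neat1: ctcagaGTGTGTGTGTGTGTGTGTGTGTGT
Over its 20771 bases *Neat1* held 37 matches to GTGTGT, counted on the transcript strand with overlaps, or 1.78 per kb. That density was higher than in 91.0% of the longest transcripts of 14769 tested genes, whose median was 0.353 per kb. *Malat1* held 2 matches, or 0.286 per kb. TAGGG, the DNA spelling of a core hnRNP A2/B1 site, was found 12 times in *Neat1* (0.578 per kb) and 5 times in *Malat1* (0.716 per kb), against a median of 0.404 per kb. *Rbm14* had 6 matches in its longest transcript (1.71 per kb, the 97.2th percentile), *Matr3* 7 (1.12 per kb) and *Sfpq* 0. *Nono* had 2 (0.781 per kb), *Tardbp* 5 (0.669 per kb) and *Pspc1* 2 (0.486 per kb). These are counts of letters and not of binding.

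The 250 bases upstream of the RefSeq starts of the DBHS genes (GRCm38.p6) are shown because the CPM of each of these genes were higher in every KO library than in any WT library, a separation that by TPM held for *Pspc1* alone of the 3. Such a separation, in either direction, was found by CPM in 44.3% of all genes tested. The capitals mark CCAAT and GGGCGG on either strand, where ATTGG is CCAAT on the opposite strand.
Sfpq: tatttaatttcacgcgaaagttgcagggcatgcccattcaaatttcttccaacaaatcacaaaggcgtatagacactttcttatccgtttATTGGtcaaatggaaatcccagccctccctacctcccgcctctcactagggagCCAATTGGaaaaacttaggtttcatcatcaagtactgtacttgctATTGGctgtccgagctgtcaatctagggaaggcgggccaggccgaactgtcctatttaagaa
Nono: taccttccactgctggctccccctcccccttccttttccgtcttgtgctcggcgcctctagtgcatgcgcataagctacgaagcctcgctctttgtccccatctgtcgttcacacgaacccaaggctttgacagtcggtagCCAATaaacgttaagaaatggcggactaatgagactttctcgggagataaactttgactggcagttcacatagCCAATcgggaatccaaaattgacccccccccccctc
Pspc1: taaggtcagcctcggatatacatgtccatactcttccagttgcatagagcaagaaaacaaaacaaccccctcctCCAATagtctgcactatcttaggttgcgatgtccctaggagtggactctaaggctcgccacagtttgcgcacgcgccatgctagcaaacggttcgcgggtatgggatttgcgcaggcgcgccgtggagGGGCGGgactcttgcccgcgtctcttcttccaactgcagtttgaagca
These windows lie at chr4:127021051-127021300 (plus), chrX:101429401-101429650 (plus) and chr14:56778319-56778568 (minus). CCAAT occurred 4 times in the *Sfpq* window, where a pair of the matches overlap, 2 times in the *Nono* window and 1 time in the *Pspc1* window. The *Nono* window lies inside the bounds given above for that gene, within the span of an annotated transcript (Nono-206) on the same strand. The longest annotated *Nono* transcript (Nono-201) starts at chrX:101429555, inside the window. The window is thus upstream of the RefSeq start only, and its last part lies within Nono-201. Of 32851 promoters of this length, 33.8% held CCAAT. The *Pspc1* window held 1 GGGCGG, which 32.7% of promoters also held. Such windows of *Rbm14*, *Tardbp* and *Malat1*, not shown, held CCAAT 4, 0 and 0 times and GGGCGG 0, 3 and 0 times. A match is a description of the letters and not a bound site.

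The libraries held 33605258 to 40558740 reads counted on genes, and CPM below are counts relative to the library total, rescaled with TMM factors (edgeR). The targeted gene, *Hnrnpa2b1*, had 159, 195 and 248 CPM (KO1 to KO3) against 225, 229 and 252 CPM (WT1 to WT3). Fold changes are given on the log2 scale as KO relative to WT, and here it was −0.23, with a standard error of 0.18 (adjusted p = 0.381, edgeR). It was −0.09 without KO1, −0.41 without KO3 and −0.10 with library totals only, and by TPM the difference was −0.49 (adjusted p = 0.174, limma). KO3 was within the WT range, so the RNA level does not by itself separate the genotypes, and protein was not analysed here. The paper checked loss of the protein in its KO clones by Western blot and immunofluorescence. Of 14828 genes tested, 22.7% passed an adjusted p of 0.05, comprising 12.1% higher and 10.6% lower in KO, and the genotypes did not overlap in 44.3%. Without WT1 the number called fell from 3361 to 933. As markers of the culture, myoblast genes summed to 4496 to 6905 CPM in KO and 5395 to 5841 CPM in WT. Of these 7 genes 3 passed the test, in opposite directions, with log2 fold changes of 0.99 for *Myod1* and 0.70 for *Cdh15*, both higher in KO, and −1.50 for *Myf5* (adjusted p = 0.0141, 0.0258 and 0.0303).

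Against that background, 2 of the 8 genes (25%), *Sfpq* and *Pspc1*, passed the edgeR threshold, both higher in KO. The genotypes did not overlap in CPM for 3 of 8 (37.5%), the DBHS genes. The median log2 fold change of the 8 was 0.25, beside 0.03 over all genes tested. Without KO3, WT1 or WT3 the count was 0, and without KO2 it was 1, *Pspc1*.

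**Figure D1:**
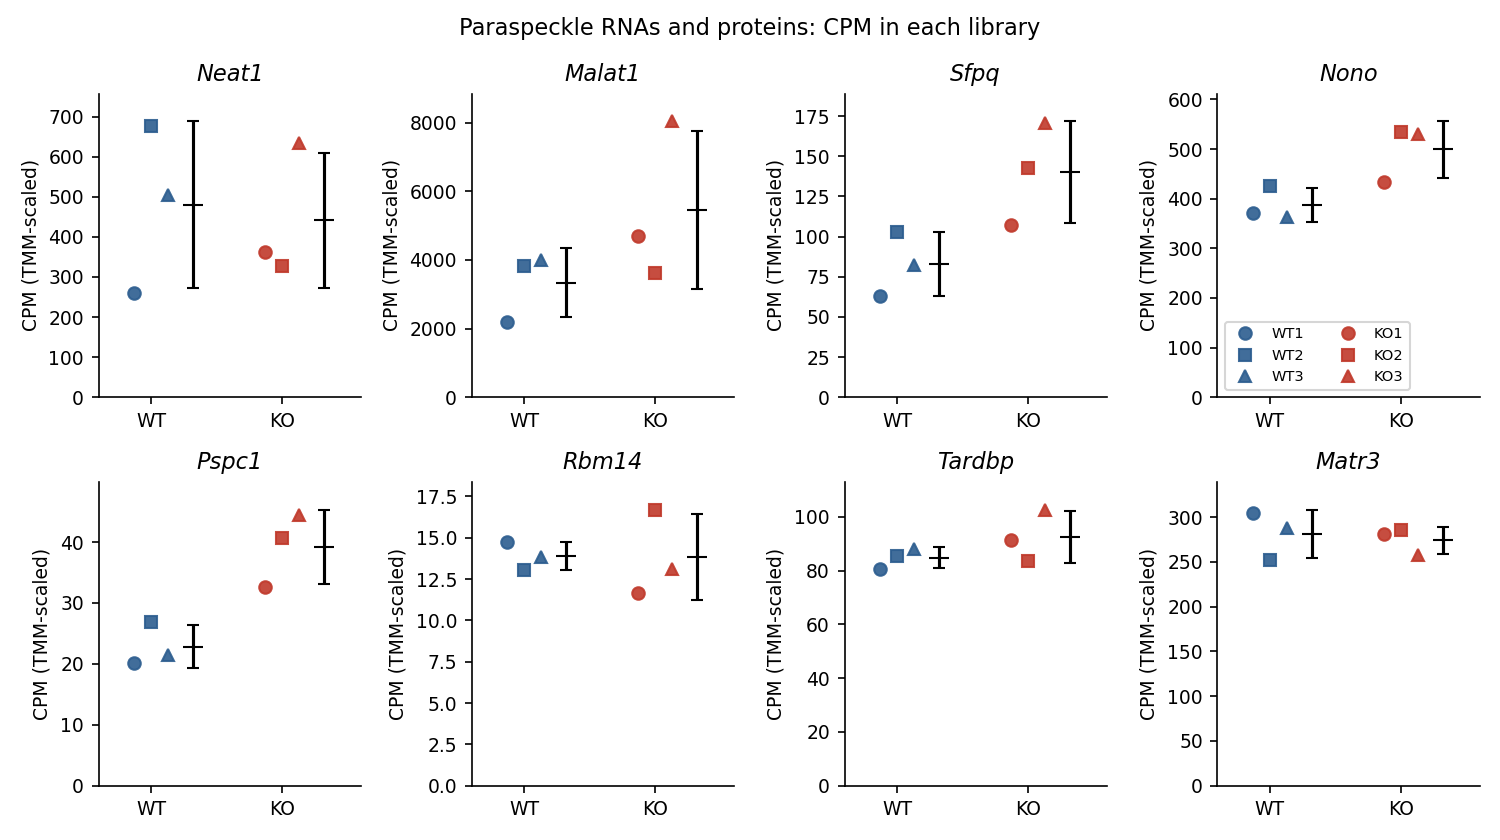
CPM (TMM-scaled, linear axes from 0) of the 8 genes in each library, with symbols for the replicate numbers and bars for the mean ± SD of 3 libraries. The 3 KO libraries lie above the 3 WT libraries for Sfpq, Nono and Pspc1, and the genotypes overlap for the other genes.

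*Neat1* RNA did not differ beyond the spread between libraries. Its level was 361, 327 and 635 CPM (KO1 to KO3) against 260, 676 and 504 CPM (WT1 to WT3). The highest and the lowest library were both WT, and every KO value fell between them. The log2 fold change was −0.12 (standard error 0.38, adjusted p = 0.833), with a 95% interval of −0.99 to 0.75, so a change of considerable size in either direction was not detectable with these libraries. Leaving out KO2 or WT2 turned the sign, to 0.06 and 0.20.

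*Malat1* took 0.208% to 0.857% of all counted reads. It had 4685, 3625 and 8047 CPM in KO and 2178, 3834 and 3997 CPM in WT. KO3 was the highest library and WT1 the lowest, whereas KO2 lay below both other WT libraries. The log2 fold change of 0.71 (standard error 0.38, 95% interval −0.16 to 1.58) missed the threshold, with an adjusted p of 0.202. Without KO3 it was 0.32. Ribosomal protein genes took 3.19%, 4.25% and 2.64% of the counts of KO1 to KO3, and 5.08%, 4.91% and 4.22% of those of WT1 to WT3. KO3, with the most *Malat1*, had the lowest share and WT1, with the least, the highest. The part of this in the *Malat1* values was not tested.

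Relative to *Malat1*, *Neat1* was lower in each KO library than in any WT library. The ratio of their CPM was 7.71%, 9.03% and 7.89% (KO1 to KO3) against 12.0%, 17.6% and 12.6% (WT1 to WT3). Both RNAs are read in the same library, so this ratio does not depend on the scaling of libraries. The difference was −0.76 on the log2 scale, with a KO mean of 8.21% ± 0.714 and a WT mean of 14.1% ± 3.11 (SD, n = 3 each). An exact two-sided permutation test gave p = 0.1, which is the smallest that 3 libraries against 3 allow, and 0.133 after adjustment over the 4 ratios computed. Leaving out single libraries, the difference ranged from −0.86 to −0.58.

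**Figure D2:**
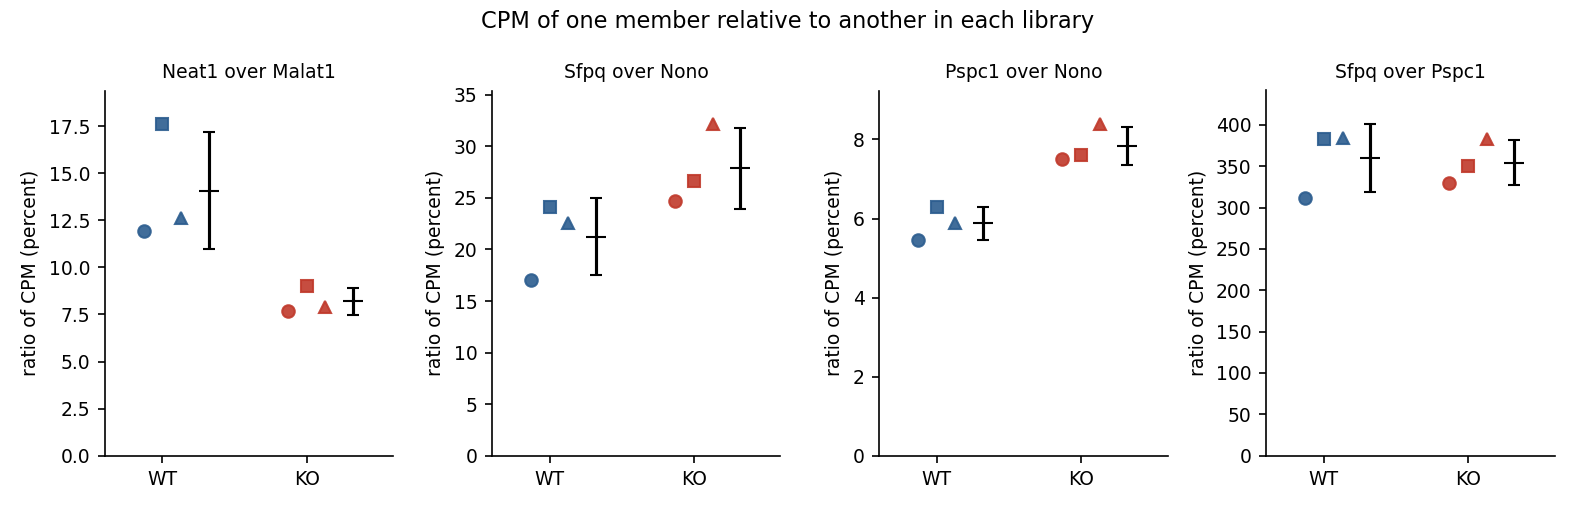
CPM of one gene as a percent of another in each library (linear axes from 0), with circles, squares and triangles for replicates 1, 2 and 3, blue for WT and red for KO, and bars for the mean ± SD of 3 libraries. Neat1 over Malat1 is lower and Sfpq and Pspc1 over Nono are higher in every KO library than in any WT library, whereas Sfpq over Pspc1 overlaps.

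The DBHS genes encode paired RNA- and DNA-binding proteins, of which SFPQ and NONO are needed to stabilise the long *Neat1* and PSPC1 marks the body. All 3 RNAs were higher in each KO library than in any WT library, by 1.29 to 1.72 times in mean CPM, a separation in either direction that 44.3% of all genes tested also had. *Pspc1*, the least abundant, had 32.6, 40.7 and 44.5 CPM in KO and 20.2, 26.9 and 21.4 CPM in WT. The lowest KO library was above the highest WT library. Its log2 fold change was 0.78 (standard error 0.17, adjusted p = 0.0184), and it stayed between 0.69 and 0.91 as libraries were left out. The call was lost without KO3 (adjusted p = 0.0538), without WT1 (0.0909) and without WT3 (0.0856), within a range over all alternatives of 0.00137 to 0.0909.

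*Sfpq* had 107, 143 and 171 CPM in KO and 62.9, 103 and 82.2 CPM in WT. KO1 and WT2 were separated by only a few CPM. The log2 fold change was 0.76 (standard error 0.23), with an adjusted p of 0.0469, just inside the threshold. Leaving out KO2, KO3, WT1 or WT3 raised it to 0.0854, 0.129, 0.164 and 0.143, and over all alternatives it ranged from 0.00112 to 0.164.

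*Nono*, the most abundant of the family, had 434, 535 and 530 CPM in KO and 370, 426 and 363 CPM in WT. KO1 was close to WT2, yet the genotypes did not overlap. Its log2 fold change of 0.37 (standard error 0.16) did not pass after adjustment, with an adjusted p of 0.123 and a 95% interval of 0.01 to 0.73.

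Within the family, *Sfpq* was 24.7%, 26.7% and 32.2% of *Nono* in the KO libraries and 17.0%, 24.1% and 22.6% in the WT libraries, by CPM. *Pspc1* was 7.51%, 7.60% and 8.40% of *Nono* in KO and 5.45%, 6.30% and 5.88% in WT. The log2 differences were 0.40 and 0.42, and exact two-sided permutation tests gave p = 0.1 for each (0.133 adjusted over the 4 ratios), the smallest possible. Without WT1 the difference of *Sfpq* over *Nono* was 0.24. *Sfpq* was 329%, 351% and 383% of *Pspc1* in KO and 312%, 383% and 384% in WT, overlapping, with a log2 difference of −0.02 and an exact permutation p of 0.9. These comparisons within the family by CPM were added after the values had been seen.

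On TPM (a level per transcript length), *Nono* made up 72.3% ± 2.76 of the family's sum in KO and 74.1% ± 2.14 in WT (SD, n = 3 each). The difference in the *Nono* share was −1.77 percentage points, and without KO3, WT1 or KO1 it was −0.20, −0.54 and −2.76. *Sfpq* followed with 21.6% ± 2.62 and 21.2% ± 1.93. *Pspc1* had 4.68% ± 0.211 in WT and 6.04% ± 0.311 in KO, with no overlap, although the exact permutation p of 0.1 (0.3 adjusted over the 3 shares) cannot pass 0.05 at this size. For *Nono* and *Sfpq* the shares overlapped, and exact permutation tests gave p = 0.6 and 0.8 (0.8 each after adjustment).

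The rise of *Sfpq* and *Pspc1* was accompanied by other differences between the cultures. Of the 5 markers of fibroblast-like cells, 4 passed the test as higher in KO (against 12.1% of all genes), and their sum was 200 to 378 CPM in KO and 65.1 to 106 CPM in WT. *Dpt* had 3.77 to 56.2 CPM in KO and 0.396 to 0.665 CPM in WT, and *Ly6a* 33.4 to 84.2 and 7.98 to 9.53 CPM. Of 16 sarcomere genes, which encode the contractile apparatus, 3 fell (18.8%, against 22.7% of all genes called and 10.6% lower). Their median log2 fold change was −0.94, beside 0.03 over all genes tested, and 1 of the 16, *Ttn*, had a positive value. The sum of the 16 was 8050 to 20481 CPM in KO, lowest in KO2, and 18131 to 23905 CPM in WT. In KO3, *Ttn* gave 9871 of the 15638 CPM of that sum. *Tcap* fell by 3.39 and *Actn2* fell by 2.94 on the log2 scale (adjusted p = 0.00927 and 0.00212, edgeR). Immune markers summed to 2.86 to 4.25 CPM in KO and 1.95 to 2.54 CPM in WT, with *Cd3e* at 0 in every library, endothelial markers to 0.308 to 1.44 and 1.95 to 3.50 CPM, and neural markers to 12.8 to 29.8 and 2.75 to 4.39 CPM. Of 5 genes in each of these 3 lists, 2 immune, 3 endothelial and 2 neural genes were tested. *Lyz2* and *Tubb3* were called higher and *Kdr* lower in KO (adjusted p = 0.0323, 0.00422 and 0.0363, edgeR). *Lyz2* had 0.503 to 0.643 CPM in KO and 0 to 0.162 CPM in WT. *Kdr* had 0.0559 to 0.366 CPM in KO and 0.723 to 1.37 CPM in WT, so these calls rest on few counts. Adipocyte markers were all at 3 counts or fewer in every library, with *Lep* at 0. In a bulk sample, fewer cells of a type and less RNA per cell cannot be told apart, and the part of these differences in the DBHS values was not tested.

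The remaining RNA-binding proteins did not separate the genotypes. *Rbm14*, whose prion-like protein is needed to assemble paraspeckles, had 11.7, 16.7 and 13.1 CPM in KO and 14.7, 13.1 and 13.8 CPM in WT. The WT values lay inside the KO range, and the log2 fold change was −0.0040 (standard error 0.18, adjusted p = 0.989, 95% interval −0.41 to 0.40). *Tardbp* had 91.2, 83.7 and 103 CPM in KO and 80.6, 85.5 and 88.2 CPM in WT, and the log2 fold change was 0.13 (standard error 0.12, adjusted p = 0.485, 95% interval −0.16 to 0.41). KO1 and KO3 lay above all WT libraries and KO2 did not. The fold change was 0.048 without KO3, 0.08 without WT1, 0.20 without KO2 and 0.24 with library totals only.

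*Matr3* (chr18:35562146-35593835, plus strand) encodes a nuclear matrix protein that binds RNA. It had 281, 285 and 257 CPM in KO and 304, 252 and 288 CPM in WT. Its KO values fell inside the WT range. The log2 fold change was −0.04 (standard error 0.14, adjusted p = 0.861), and its 95% interval of −0.35 to 0.28 was among the narrower of the 8. With library totals in place of TMM, the median of all genes moved from 0.03 to 0.15, and the signs of *Matr3* and *Rbm14* turned, to 0.08 and 0.12.

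Genes that overlap a member could share its reads, and the use of strand in counting is not given in the sources used here. *Gm12940*, on the strand of *Sfpq*, had 61 to 210 counts, at most 4.16% of the *Sfpq* count of a library, and its log2 fold change was −0.03 (adjusted p = 0.973). *Gm21992*, on the strand of *Rbm14*, had 28 to 72 counts, at most 11.0% of *Rbm14*. On the opposite strand, *Gm21844* reached 3.03% of *Rbm14* and *Masp2* 2.21% of *Tardbp*. *Gm36989* and *Gm28285*, on the strand of *Matr3*, reached 2.46% and 0.266% of it.

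TPM gives the order of the genes per length. *Nono* was the highest of the 7 genes with a TPM above 0 in every library, at 109, 140 and 165 in KO and 103, 121 and 93.1 in WT. *Matr3* followed at 50.4 to 56.2 in KO and 50.9 to 57.4 in WT. Next came *Sfpq* (29.4 to 58.9 in KO, 25.5 to 37.4 in WT) and *Neat1* (25.1 to 68.0 in KO, 18.9 to 41.0 in WT), whose ranges overlapped each other in both genotypes and that of *Matr3* in KO. *Tardbp* had 17.4 to 27.8 in KO and 16.8 to 24.4 in WT, overlapping *Neat1*. *Pspc1* (8.35 to 14.7 and 5.94 to 8.03) and *Rbm14* (2.77 to 3.92 and 3.23 to 3.74) were lowest and overlapped no gene above them.

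*Malat1* had no usable TPM in every library. It was listed at 0 in KO1, which had 167547 counts, and in WT1, which had 75374. In KO2, KO3, WT2 and WT3 its TPM was 688, 1638, 788 and 1405. Between 7 and 11 genes with at least 1000 counts were listed at 0 TPM in a library, among them the mitochondrial gene *mt-Nd1*, so such a 0 is not an absence of RNA. In the 4 libraries with both values, *Neat1* was 3.65% and 4.15% of *Malat1* by TPM in KO2 and KO3 and 5.20% and 2.12% in WT2 and WT3, which overlap, unlike the CPM ratios.

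*Neat1* differed in sign between the measures. By TPM it was 38.2, 25.1 and 68.0 in KO and 18.9, 41.0 and 29.7 in WT, and the difference in log2(TPM + 1) was 0.49 (standard error 0.37, adjusted p = 0.370, limma), where the count fold change was −0.12. Without KO3 the TPM difference was 0.12, without WT1 it was 0.20, and without KO2 or WT2 it was 0.82 and 0.74. Neither passed its test. *Sfpq* moved the other way, from 0.76 in counts to 0.43 (standard error 0.26, adjusted p = 0.262) in TPM, and its genotypes overlapped there. Without KO3 its TPM difference was 0.16 and without KO1 it was 0.65. *Nono* was alike in both, at 0.37 (standard error 0.19, adjusted p = 0.191) by TPM.

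*Pspc1* was the 1 of 7 genes that passed by TPM, where 20.2% of all genes tested did. It had 8.35, 12.0 and 14.7 TPM in KO and 5.94, 8.03 and 6.06 TPM in WT, without overlap, and a difference of 0.70 (standard error 0.21, adjusted p = 0.0488, limma). That call lay at the threshold. It held in 2 of 9 alternatives, and the adjusted p ranged from 0.00752 to 0.185. It was lost without KO2, KO3, WT1, WT2 or WT3 (adjusted p = 0.105, 0.123, 0.185, 0.0579 and 0.146).

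**Figure D3:**
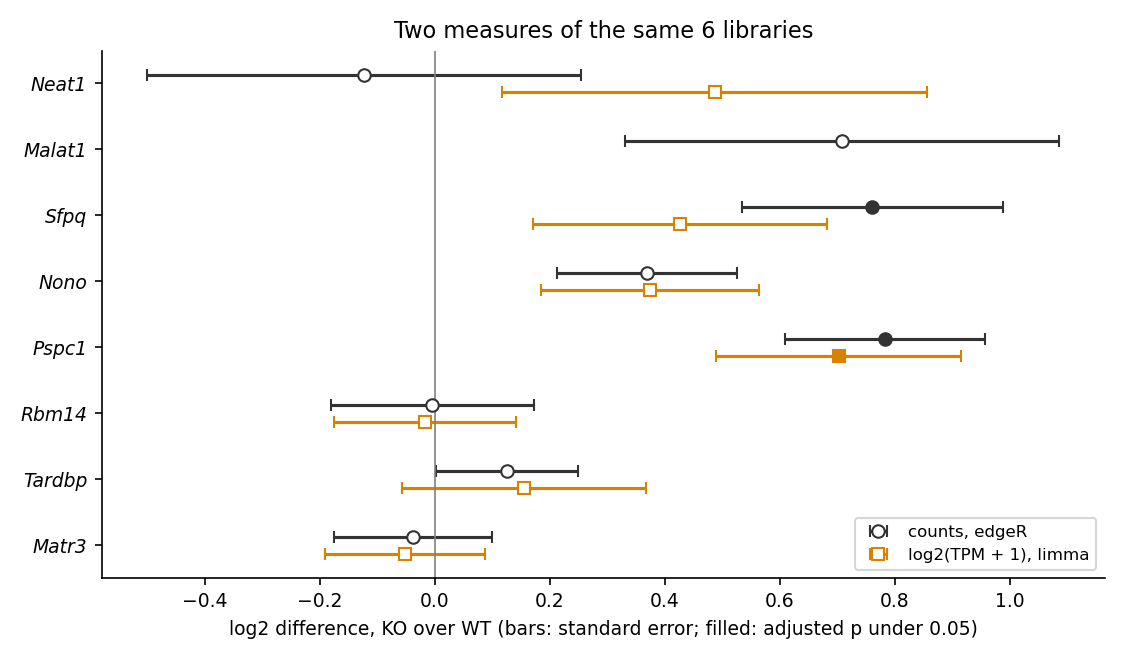
Log2 difference of KO over WT from counts (edgeR) and from log2(TPM + 1) (limma), with standard errors and filled symbols for an adjusted p under 0.05. Neat1 lies at −0.12 by counts and 0.49 by TPM, Pspc1 is filled in both, and Malat1 has no TPM value.

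To see where the measures part, the log2 ratio of TPM to CPM was taken for each gene and library, relative to the library's median over 10116 genes. For *Neat1* it was −1.23, −1.77 and −1.53 (KO1 to KO3) against −1.94, −2.23 and −2.11 (WT1 to WT3). Every KO library thus gave more *Neat1* TPM per counted read than any WT library. The difference of 0.58 was larger than in 99.6% of genes, of which the middle 90% lay between −0.14 and 0.13. For *Sfpq* the ratio was 0.14, 0.05 and 0.16 in KO and 0.55, 0.35 and 0.43 in WT, a difference of −0.33 at the 1.33th percentile, again without overlap.

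For *Nono*, *Pspc1*, *Rbm14*, *Tardbp* and *Matr3* this difference lay between −0.02 and 0.04. StringTie's TPM depends on the transcripts to which it assigns reads, and the mix of transcripts was not tested. The annotation holds 4 transcripts of *Neat1*, of 711 to 20771 bases, and 6 of *Sfpq*, of 600 to 3465 bases.

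**Figure D4:**
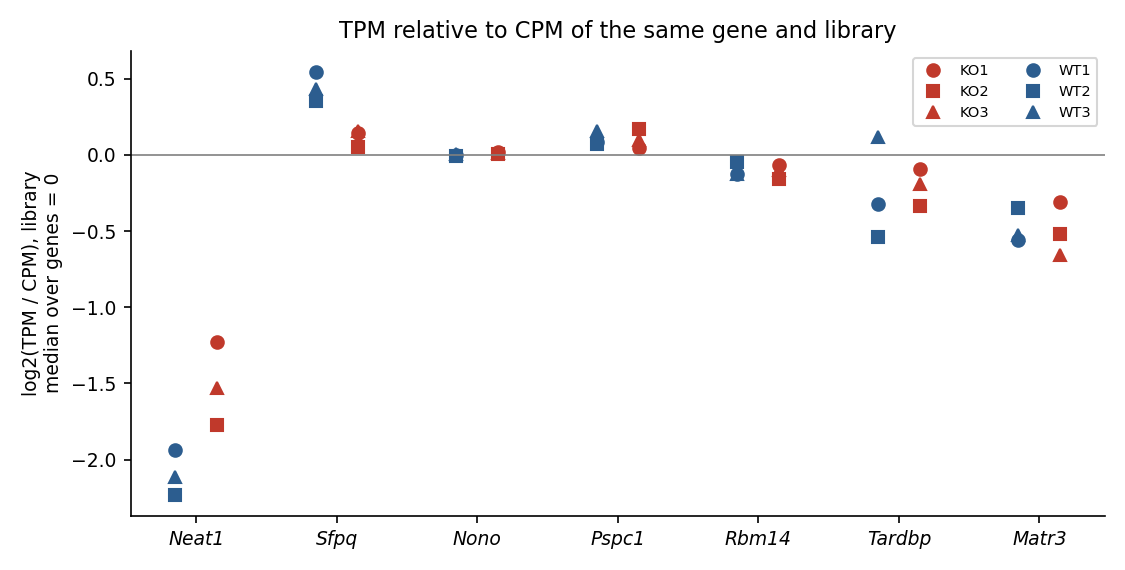
Log2 of TPM over CPM for 7 genes in each library, with the library's median over genes set to 0. For Neat1 the KO libraries (−1.77 to −1.23) lie above the WT libraries (−2.23 to −1.94), for Sfpq they lie below, and the other genes overlap.

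Other proteins found in paraspeckles were read from a list of 38 genes, of which 37 were matched and 35 tested. Of these, 7 were higher and 2 lower in KO (25.7% called, against 22.7% of all genes), and the median log2 fold change was 0.18. *Hnrnpm*, a splicing regulator, rose by 0.90 on the log2 scale (standard error 0.21, adjusted p = 0.0206), from 81.6 ± 17.3 CPM in WT to 152 ± 28.8 CPM in KO (SD, n = 3 libraries each, edgeR). Its call was lost without KO3, WT1 or WT3 (adjusted p = 0.0592, 0.0806 and 0.0653). *Rbm12*, *Hnrnpa1*, *Rbm3*, *Nudt21* and *Ahdc1* also rose, of which *Nudt21* encodes a subunit of the cleavage factor that promotes polyadenylation of the short *Neat1*. *Fam98a* fell by 0.80 and *Dazap1*, an hnRNP-like splicing regulator, fell by 0.63 (adjusted p = 0.0143 and 0.0134). The *Fam98a* call was lost without WT1 or WT3 (adjusted p = 0.0701 and 0.0568) and the *Dazap1* call without WT1 (0.0720). Without WT1 the count fell from 9 to 1, and without WT3 to 3. Without KO3, 3 were called higher and 3 lower.

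For nuclear speckles, the compartment of *Malat1*, all 20 listed genes were tested, with a median of 0.20. Of these, 5 rose (25%, against 22.7% of all genes called and 12.1% higher). *Srsf3* rose by 0.89 and *Bclaf1* by 0.89 on the log2 scale (adjusted p = 0.0247 and 0.00621, edgeR), and *Srsf1*, *Srsf2* and *Acin1* also passed. *Srsf1*, *Srsf2* and *Srsf3* encode SR proteins, which promote the use of exons. Without KO3, WT1 or WT3 the count was 1, and without KO2 it was 2, whereas *Bclaf1* passed in all 11 alternatives.

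Of 7 other nuclear lncRNAs, 5 were tested, with a median of −0.10, and 2 fell (40%, against 22.7% of all genes called and 10.6% lower). With no filter on low counts 2 were called higher and 2 lower, and with DESeq2 1 was called higher and 2 lower. *Pvt1*, which lies beside *Myc*, fell by 1.36 on the log2 scale (adjusted p = 0.00504), from 16.7 ± 3.11 to 6.52 ± 0.846 CPM (SD, n = 3 libraries each, edgeR). *Airn*, an imprinted antisense RNA, fell by 0.88 (adjusted p = 0.0262), from 4.88 ± 0.185 to 2.65 ± 0.238 CPM. *Airn* overlaps *Igf2r* in antisense, and without strand the reads of both cannot be told apart. The *Airn* call was lost in 6 of 11 alternatives, including those without KO3, WT1, WT2 or WT3 (adjusted p = 0.0562, 0.0992, 0.0664 and 0.0912).

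The enzymes that cut the ends of *Neat1* and *Malat1* and those of RNA adenosine methylation formed a list of 11 genes. Of these, 10 were tested, with a median of 0.03, and 2 rose (20%, against 22.7% of all genes called and 12.1% higher). Both encode subunits of RNase P, the enzyme that makes the nonpolyadenylated ends of both RNAs. *Pop1* rose by 1.22 (adjusted p = 0.00513) and *Rpp38* by 0.69 (adjusted p = 0.0134), whereas *Rpp40* and *Rpp30*, of the same enzyme, had log2 fold changes of −0.61 and −0.39 that did not pass. With DESeq2, with no filter on low counts and without KO2, *Rpp40* was also called, as lower. *Pop1* passed in all 11 alternatives, and without WT1 or WT3 the *Rpp38* call was lost (adjusted p = 0.0771 and 0.0542).

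**Figure D5:**
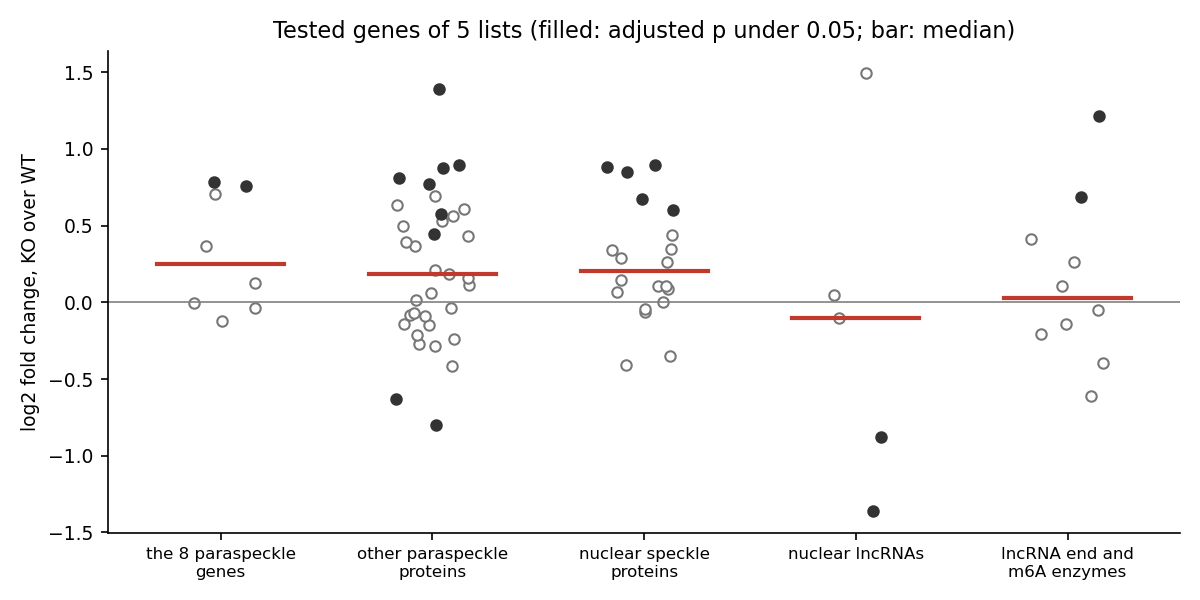
Log2 fold change of KO over WT for each tested gene of 5 lists, filled where the adjusted p was under 0.05 (edgeR), with the median as a bar. The medians lie between −0.10 and 0.25, and Pop1 (1.22) and Pvt1 (−1.36) are among the called genes.

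The genes whose pattern across the 6 libraries was most like that of *Neat1* were *Paxbp1*, *Plat* and *Ttll5*, with root mean square differences of centred log2 CPM of 0.24, 0.26 and 0.28, where the median over 5258 genes was 0.58. *Hnrnpu*, *Ttn* and *Ttc14* were the most like *Malat1*, with differences of 0.19, 0.20 and 0.20 and a median of 0.63. *Hnrnpu*, which encodes a nuclear scaffold protein, had 57.1, 58.1 and 91.4 CPM in KO and 31.4, 47.6 and 44.1 CPM in WT (log2 fold change 0.75, adjusted p = 0.0530). *Ttn*, the giant sarcomere gene, had 5753, 3141 and 9871 CPM in KO and 2594, 4901 and 5212 CPM in WT, highest in KO3 and lowest in WT1, as *Malat1* was.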

How the data were processed

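The data are RNA-seq of differentiated C2C12 cells, with 3 libraries per genotype. Per the labels and the paper, the authors used STAR, featureCounts, StringTie and Salmon in a Nextflow pipeline, with SortMeRNA depletion. They deposited raw counts per gene and, for each library, StringTie TPM values, which correct for transcript length. Strand and the versions behind these files are not given in the sources used here. The labels name mm9 and the paper GRCm39, but of 45137 shared genes, 83.2% have exactly the GRCm38 positions of GENCODE M21, so GRCm38 is used.

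Counts were tested with edgeR 4.0.16 (TMM, filterByExpr, two-sided quasi-likelihood test, Benjamini-Hochberg over 14828 genes, threshold 0.05). TPM, summed by gene identifier, was tested with limma 3.58.1 on log2(TPM + 1) for genes with at least 1 TPM in 3 libraries. DESeq2 1.42.0, other scalings and filters and left-out libraries were alternatives. R was 4.3.3. A floor of 3 counts was used. The steps were tested on simulated data. No library repeated another.

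Named genes were the 8 members, *Hnrnpa2b1*, the 2 largest called rises and falls of each list, the 3 genes most like *Neat1* and *Malat1* (mean log2 CPM of at least 5, no predicted-gene name), and tested genes overlapping a member. *Srsf1*, *Srsf2*, *Acin1*, *Rbm12*, *Hnrnpa1*, *Rbm3*, *Nudt21*, *Ahdc1*, *Rpp40*, *Rpp30*, *Cd3e*, *Lep* and *mt-Nd1* were named after their values were seen. A gene that the rule also names is not reported here. The members and lists were chosen with earlier results of these data known.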

Additional observations from a re-analysis of the deposited data

How the results depend on the processing

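To see whether replicate numbers pair the libraries, the mean log2 CPM of its genotype was subtracted for each gene and library. Over genes, these deviations correlated with r = 0.14, −0.12 and 0.00 between same-numbered KO and WT libraries. Between libraries of unlike number, r ranged from −0.34 (KO3 and WT1) to 0.28 (KO3 and WT2). No pairing by number was seen, which 3 libraries per genotype cannot exclude. With the replicate block in edgeR, 2520 genes passed in place of 3361, and 1 nuclear lncRNA in place of 2; no call of a member changed. Leaving out libraries moved the number called between 933 and 4713 for counts and between 482 and 3134 for TPM (2366 with all libraries), and with no filter on low TPM it was 1056. With library totals only, 3469 genes passed, 2295 higher and 1174 lower, against 1796 and 1565. With libraries left out in turn, log2 fold changes ranged from −0.48 to 0.20 for *Neat1*, 0.59 to 0.94 for *Sfpq*, 0.69 to 0.91 for *Pspc1*, 0.048 to 0.20 for *Tardbp*, −0.16 to 0.10 for *Rbm14* and −0.12 to 0.014 for *Matr3*, and with library totals only *Rbm14* and *Matr3* were at 0.12 and 0.079. By TPM they ranged from 0.12 to 0.82 for *Neat1*, 0.16 to 0.65 for *Sfpq*, 0.24 to 0.53 for *Nono* (adjusted p = 0.0496 without KO1), 0.53 to 0.91 for *Pspc1*, −0.088 to 0.10 for *Rbm14* and −0.015 to 0.31 for *Tardbp*. *Pspc1* by TPM also lost its call with a pseudocount of 0.1 (0.77, adjusted p = 0.0613) and with no filter (0.70, adjusted p = 0.174). Called genes ranged over left-out libraries from 0 to 2 among the 8 genes, 1 to 11 of other paraspeckle proteins, 1 to 5 of nuclear speckle proteins, 1 to 3 of nuclear lncRNAs and 1 to 3 of processing enzymes. Of nuclear lncRNAs, 1 passed with library totals only and 4 with no filter. The *Sfpq* share of the DBHS sum, 0.41 percentage points higher in KO, ranged from −1.11 to 1.22, that of *Nono* from −2.76 to −0.20, the log2 difference of *Sfpq* over *Pspc1* from −0.12 to 0.033 and that of *Sfpq* over *Nono* from 0.24 to 0.50; these were left-out checks added after seeing the data. The cause of these changes was not tested. The *Neat1* to *Malat1* ratio kept its sign with libraries left out by CPM. By TPM it could be computed in 4 libraries, where the genotypes overlapped (3.65% and 4.15% in KO2 and KO3, 5.20% and 2.12% in WT2 and WT3), and it was not tested, since *Malat1* was listed at 0 in KO1 and WT1. Permuting within replicate numbers gave an exact p of 0.25 for that ratio, the smallest possible.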

Other observations

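Around each gene, the tested genes within 1 Mb gave a median log2 fold change of −0.09 for *Neat1* (80 genes), −0.06 for *Malat1* (81), −0.02 for *Rbm14* (89), 0.14 for *Sfpq* (27), 0.16 for *Nono* (21), 0.19 for *Matr3* (33), 0.30 for *Tardbp* (36) and 0.42 for *Pspc1* (21), beside 0.03 over all genes. Called higher and lower in KO by edgeR were 6 and 14 around *Neat1*, 6 and 14 around *Malat1*, 7 and 13 around *Rbm14*, 4 and 0 around *Sfpq*, 1 and 1 around *Nono*, 4 and 2 around *Matr3*, 6 and 3 around *Tardbp* and 2 and 1 around *Pspc1*, where 12.1% of all genes tested were called higher and 10.6% lower. The stretches around *Neat1*, *Malat1* and *Rbm14* overlap on chromosome 19 and hold many of the same genes, so their values are not separate. These are descriptions without a test.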
